A study of Homo sapiens with 6 samples.

Results

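The genes described here are 10 transcription factors that control epithelial to mesenchymal transition (EMT): ZEB1, ZEB2, SNAI1, SNAI2, TWIST1, TWIST2, PRRX1, FOXC2, GRHL2 and OVOL2. They were picked by name and looked up by Entrez identifier, and 6 of the 10 had a row among the 12703 genes counted. The study asked how gene expression differs when the glycosyltransferase GCNT1 is overexpressed in PC3, a prostate cancer cell line first grown from a metastasis to bone. Stable lines were made with lentivirus, 3 of them with a GCNT1 construct and 3 with a negative control, so both groups carry a lentiviral insertion. Each line gave 1 mRNA library. Total counts were 12755888, 12717300 and 12125672 in control libraries 1 to 3 and 11392213, 13411484 and 13825704 in GCNT1 overexpressing libraries 1 to 3. Levels are given as CPM, counts scaled to a common library size with TMM factors, and 3 counts correspond to 0.213 to 0.259 CPM, a floor that covers counting error only.

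EMT is the change in which epithelial cells give up their junctions and polarity and become motile. The zinc finger proteins of the ZEB and SNAIL families repress epithelial genes such as CDH1 (E-cadherin) by binding E-boxes in their promoters, and the basic helix-loop-helix proteins TWIST1 and TWIST2, the homeodomain protein PRRX1 and the forkhead protein FOXC2 also drive the mesenchymal state. GRHL2 and OVOL2 hold cells in the epithelial state, and GRHL2 and ZEB1 repress each other.

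The overexpressed gene was examined first. GCNT1, the enzyme that adds the core 2 branch to O-glycans, had 9, 13 and 8 counts in control libraries 1 to 3 and 13, 16 and 35 counts in GCNT1 overexpressing libraries 1 to 3. Its CPM did not overlap between groups, although both groups were low and library 3 of the overexpressing group stood above the others. The log2 fold change was 0.98 (SE 0.37) with an adjusted p of 0.0362 by the quasi-likelihood test of edgeR after Benjamini-Hochberg correction. Without overexpressing library 3 the log2 fold change was 0.49 and the adjusted p 0.269, and the adjusted p was 0.092 without control library 1 and 0.0944 without control library 3 (edgeR, Benjamini-Hochberg). PRUNE2 overlaps GCNT1 on the opposite strand. Since the strand setting of the counting is not given in the sources used here, reads of the 2 genes cannot be told apart. As checks of its overexpressing PC3 model the paper also presents immunocytochemistry, sandwich ELISA and real-time PCR of GCNT1. Those measurements are not part of these counts.

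Among the 6 measured factors, TWIST2 nearly disappeared in the GCNT1 overexpressing lines and ZEB2 rose from a very low level. ZEB1 fell slightly, but its adjusted p was above 0.05 in 10 of 14 alternative analyses. SNAI1, SNAI2 and TWIST1 did not pass the test. A gene is said to have risen or fallen at an adjusted p under 0.05, and to be called when its absolute log2 fold change is also at least 0.58. Of the 6 measured factors 2 were called, where 19.3% of all genes were called. The called factors were 1 higher, ZEB2, where 8.28% of all genes were called higher, and 1 lower, TWIST2, where 11.1% were called lower. By adjusted p alone 3 of the 6 passed, where 57.6% of all genes did. That was 1 rise against 28.3% of all genes and 2 falls against 29.3%. The CPM of the groups did not overlap for 2 of the 6, where this held for 62.5% of all genes. With so many genes differing between these lines, the shares among the 6 factors are not a result about this family.

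**Figure D1:**
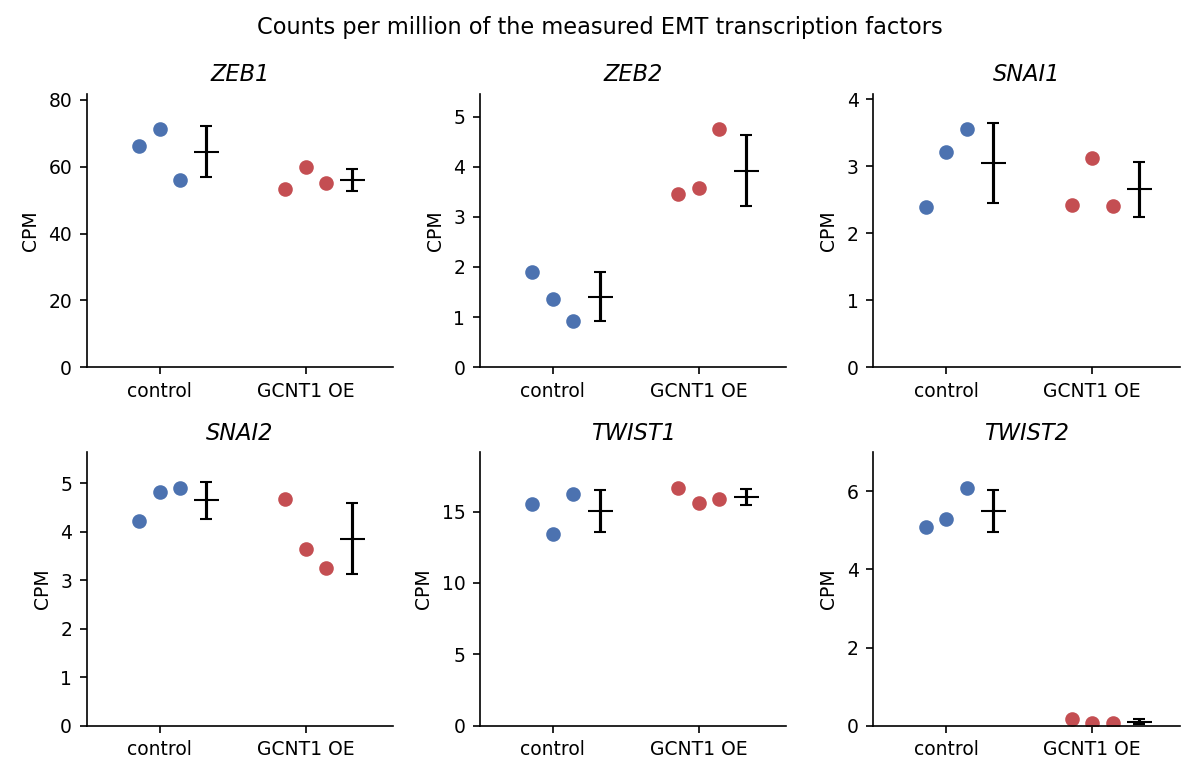
CPM of the 6 measured EMT transcription factors, with 1 point per library, 3 control libraries (blue) and 3 GCNT1 overexpressing libraries (red), and the mean ± SD of each group in black. Each panel has its own linear axis from 0. TWIST2 lies between 5.09 and 6.09 CPM in control libraries and at 0.173 CPM or less in overexpressing libraries, and ZEB2 moves the other way.

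TWIST2, a repressor known from dermal and mesenchymal development, lies on the plus strand at chr2:238848085-238910534 of GRCh38. It had 64, 66 and 72 counts in control libraries 1 to 3 and 2, 1 and 1 counts in overexpressing libraries 1 to 3. Every control library was far above every overexpressing library, and all 3 overexpressing libraries lay under the floor of 3 counts. The mean level was 5.49 ± 0.529 CPM (SD, n = 3) in control lines and 0.105 ± 0.0583 CPM (SD, n = 3) in overexpressing lines. Summed over the group, 4 counts in overexpressing lines against 202 in control lines gave a normalized ratio of 0.0185, with an exact 95% counting interval of 0.0050 to 0.0481. The fitted log2 fold change was -5.62 (SE 0.32), with an adjusted p of 1.06e-08 (edgeR quasi-likelihood test, Benjamini-Hochberg), and its size depends on the prior count because the overexpressing counts are so low. No other annotated gene of GENCODE 44 overlaps TWIST2.

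The sequence before the start of TWIST2 is shown because this gene had the largest difference among the factors. It was read from the RefSeq promoter table (build GRCh38.p14), which held entries for 4 of the 10 factors. The stretch is chr2:238847835-238848031 on the plus strand, 197 bases that end just before the first base of any annotated exon. Capitals mark CCAAT.
TWIST2: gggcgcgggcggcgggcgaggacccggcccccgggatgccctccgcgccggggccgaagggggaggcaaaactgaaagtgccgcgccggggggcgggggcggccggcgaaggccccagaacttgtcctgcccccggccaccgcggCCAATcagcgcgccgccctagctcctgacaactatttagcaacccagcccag
Both strands were searched for the CCAAT box (CCAAT or ATTGG) and for the E-box CANNTG, which reads the same on both strands. TWIST2 had 1 CCAAT box and no E-box here, while 26.9% of the 35116 promoter entries had a CCAAT box and 54.1% had an E-box in a window of the same length. The stretch held 24 CG dinucleotides, where the median entry held 7. These matches describe the letters of the window and are not binding sites.

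TWIST1, the close relative of TWIST2, is on the minus strand at chr7:19113047-19117636. Control libraries 1 to 3 had 15.6, 13.4 and 16.2 CPM, and overexpressing libraries 1 to 3 had 16.7, 15.6 and 15.9 CPM. The groups overlapped. Its log2 fold change was 0.09 (95% interval -0.12 to 0.29), with an adjusted p of 0.438 (edgeR quasi-likelihood test, Benjamini-Hochberg). The pair share a conserved domain, and whether reads were shared between them was not tested. Overexpressing libraries had 193 to 224 counts for TWIST1 and at most 2 for TWIST2. Per kilobase of exon, TWIST2 made up 25.5% ± 1.85 (SD, n = 3) of the summed TWIST level in control lines and 0.605% ± 0.309 (SD, n = 3) in overexpressing lines. The share in overexpressing lines rests on at most 2 counts per library, under the floor of 3 counts, so its exact size is uncertain. The summed level was 10.1 ± 0.895 RPKM in control lines and 8.08 ± 0.311 RPKM in overexpressing lines (SD, n = 3), and these ranges did not overlap. An antisense lncRNA overlaps TWIST1, and its reads cannot be told apart from those of TWIST1 without a strand setting.

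ZEB2, a zinc finger repressor with roles in neural crest and blood cells, is on the minus strand at chr2:144384081-144520119. Its counts were 24, 17 and 11 in control libraries 1 to 3 and 40, 49 and 67 in overexpressing libraries 1 to 3. All 3 overexpressing libraries were above all 3 control libraries. The mean rose from 1.40 ± 0.489 to 3.92 ± 0.716 CPM (SD, n = 3 in each group). This was a log2 fold change of 1.48 (SE 0.25, 95% interval 0.95 to 2.01) with an adjusted p of 0.000197 (edgeR quasi-likelihood test, Benjamini-Hochberg). ZEB2 is overlapped on the opposite strand by 5 annotated genes, among them the lncRNA ZEB2-AS1, which had no row and was not analysed here.

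ZEB1, the ZEB factor best known as a target of the miR-200 family, is on the plus strand at chr10:31318417-31529804. Control libraries 1 to 3 had 66.1, 71.2 and 56.2 CPM, and overexpressing libraries 1 to 3 had 53.2, 59.8 and 55.0 CPM. Control library 3 lay among the overexpressing libraries, so the groups overlapped. The log2 fold change was -0.20 (SE 0.08), and the adjusted p of 0.0489 (edgeR quasi-likelihood test, Benjamini-Hochberg) was just under the threshold. The log2 fold change stayed at -0.20 with DESeq2, limma-voom, a mean of at least 2 CPM and the replicate block, at adjusted p of 0.0515 to 0.0576 (Benjamini-Hochberg). Over all 14 alternatives the adjusted p was under 0.05 in 4 (edgeR, limma-voom or DESeq2, Benjamini-Hochberg adjustment). Apart from glmTreat, it ranged from 0.00366 without control library 3 to 0.252 without control library 2 (edgeR, Benjamini-Hochberg). glmTreat, which tests against a fold, did not pass ZEB1. Without control library 2 the log2 fold change was -0.13, and the adjusted p also missed 0.05 without control library 1, overexpressing library 1 or overexpressing library 3. ZEB1-AS1, a lncRNA on the opposite strand, had a log2 fold change of -0.12 (SE 0.13) and an adjusted p of 0.478 (edgeR, Benjamini-Hochberg). ZEB1 made up nearly all of the summed ZEB level in both groups. The share of ZEB2 per kilobase of exon was 0.707% ± 0.211 in control lines and 2.27% ± 0.446 in overexpressing lines (SD, n = 3). The length used covers all bases in any annotated exon, 8650 for ZEB1 and 26151 for ZEB2. Over a shorter ZEB2 transcript its share would be larger. Mean CPM of ZEB1 and ZEB2 was 64.5 and 1.40 in control lines and 56.0 and 3.92 in overexpressing lines.

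SNAI1 (Snail), an early repressor of CDH1, is on the plus strand at chr20:49982980-49988886 and had 30, 40 and 42 counts in control libraries 1 to 3 and 28, 43 and 34 counts in overexpressing libraries 1 to 3. SNAI2 (Slug), its relative in neural crest cells, is on the minus strand at chr8:48917598-48921429 and had 53, 60 and 58 counts in control libraries and 54, 50 and 46 counts in overexpressing libraries. Both genes overlapped between groups. The log2 fold change of SNAI1 was -0.19 (95% interval -0.64 to 0.25) with an adjusted p of 0.445 (edgeR quasi-likelihood test, Benjamini-Hochberg). For SNAI2 it was -0.28 (95% interval -0.65 to 0.08) with an adjusted p of 0.170 (edgeR, Benjamini-Hochberg). Both intervals include 0. SNAI2 is overlapped by an antisense lncRNA, and SNAI1 by no annotated gene.

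Of the remaining factors, PRRX1 and FOXC2, which drive the mesenchymal state, and GRHL2 and OVOL2, which keep the epithelial state, had no row and were not analysed here. All genes in the table had at least 1.01 CPM in their 3 highest libraries, scaled by library size alone. Whether these 4 genes were below a filter of that size is not known from the table.

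**Figure D2:**
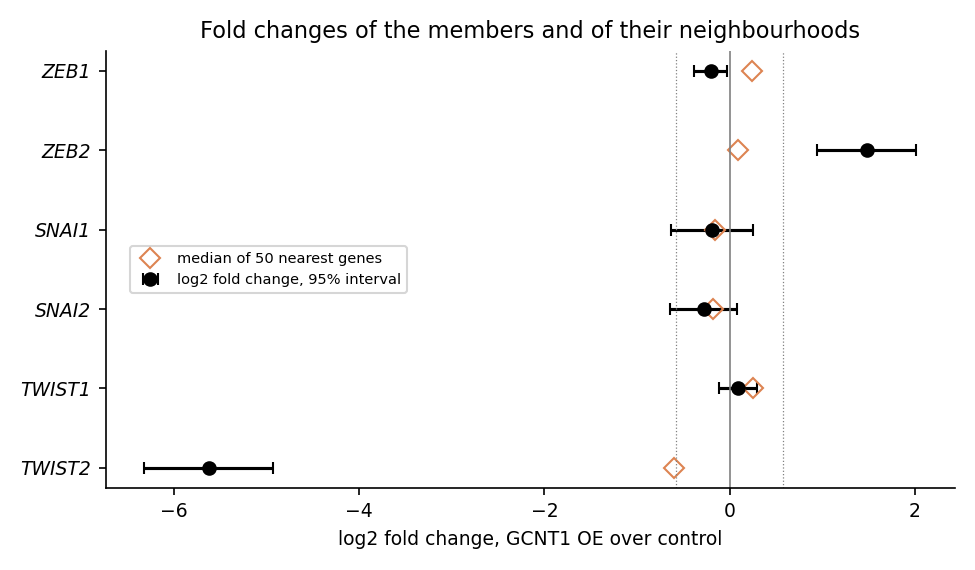
Log2 fold change of each measured factor with its 95% interval (black), and the median log2 fold change of the 50 nearest analysed genes on its chromosome (orange diamonds). Dotted lines mark the fold threshold of 0.58 on either side. TWIST2 lies at -5.62 and ZEB2 at 1.48, both far from their neighbourhood medians of -0.60 and 0.09.

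Between genes, levels were compared per kilobase of exon (RPKM). The length of ZEB2, all bases in any annotated exon, was 26151 bases, and over a shorter transcript its RPKM would be higher. In control lines the order was TWIST1 (7.55 ± 0.74), ZEB1 (7.46 ± 0.886), TWIST2 (2.58 ± 0.248), SNAI1 (1.79 ± 0.353), SNAI2 (1.42 ± 0.115) and ZEB2 (0.0536 ± 0.0187), all in RPKM with SD and n = 3. TWIST1 and ZEB1 overlapped there, and so did SNAI1 and SNAI2. In overexpressing lines TWIST2 was last at 0.0495 ± 0.0274 RPKM, a level from counts under the floor. It lay below ZEB2 at 0.150 ± 0.0274 RPKM, and the libraries of the 2 genes did not overlap. TWIST1 (8.03 ± 0.284 RPKM) and ZEB1 (6.48 ± 0.396 RPKM) stayed at the top and no longer overlapped, and SNAI1 and SNAI2 still did.

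Genes closest to TWIST2 in pattern, by the distance between log2 CPM (prior count 2) over 6 libraries after subtracting each gene's control mean, were RBP4 (distance 0.393), JDP2 (0.573) and AFAP1-AS1 (0.576). RBP4 carries retinol in blood, and JDP2 is a bZIP repressor. RBP4 went from 1160, 1153 and 1126 counts in control libraries 1 to 3 to 48, 51 and 55 counts in overexpressing libraries. The fitted log2 fold changes were -4.57 for RBP4, -5.95 for JDP2 and -4.74 for AFAP1-AS1, against -5.62 for TWIST2. The prior count shrinks differences at 1 or 2 counts, and the order of these genes was not tested with another prior. For ZEB2 the closest were PHEX (distance 0.413), a peptidase of bone mineralisation, the locus LOC102723701 (0.429) and PLCXD2 (0.478). None of these genes lies beside its factor: they are on chromosomes 10, 14 and 4 for TWIST2 and X, 8 and 3 for ZEB2.

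Genes around TWIST2 on chromosome 2 were mostly lower as well. Of the 50 nearest analysed genes 26 were called, where 19.3% of all genes were, and 47 had a log2 fold change below 0, where 49.9% of all genes did. Their median was -0.60. LINC01940, the next analysed gene after TWIST2, had a log2 fold change of -1.67, and HDAC4, which encodes a class II histone deacetylase, had one of -0.70. ASB1, on the other side, had -0.51. TWIST2 minus its neighbourhood median was -5.02 on the log2 scale, and what part the neighbourhood has in it was not tested. Around ZEB2 6 of 50 genes were called, 19 of 50 had a log2 fold change below 0 and the median was 0.09. The nearest analysed genes, QTMAN and ACVR2A, had log2 fold changes of -0.27 and -0.02. The called neighbours of ZEB2 were CXCR4 (-4.54), KIF5C (-4.09) and GALNT5 (-3.21), lower, and NCKAP5 (0.86), SMPD4BP (0.63) and RND3 (0.58), higher. ZEB1 had a neighbourhood median of 0.24, and ZEB1 minus that median was -0.44 on the log2 scale. Medians around SNAI1, SNAI2 and TWIST1 were -0.16, -0.18 and 0.26.

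**Figure D3:**
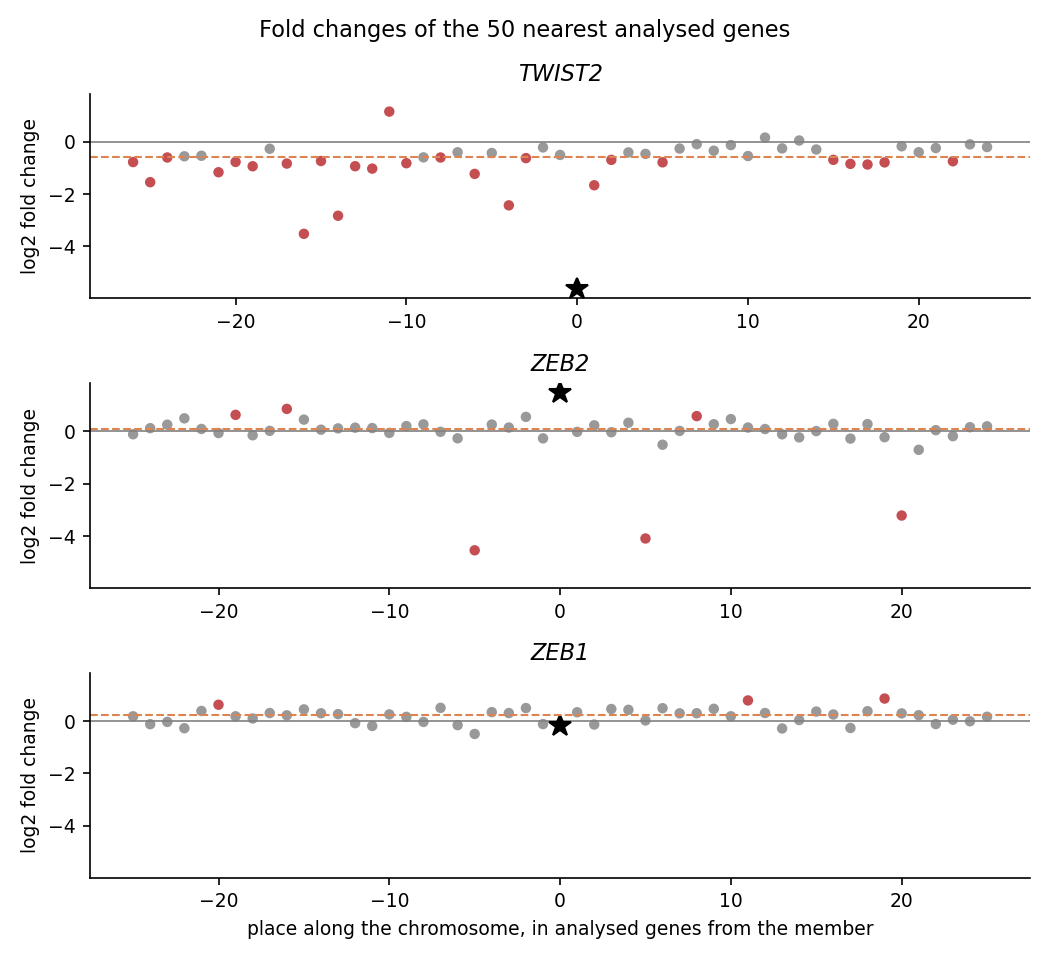
Log2 fold changes of the 50 nearest analysed genes of TWIST2, ZEB2 and ZEB1, in gene order along the chromosome, with called genes in red, other genes in grey, the factor as a star and the median of the neighbours as a dashed line. Most neighbours of TWIST2 lie below 0, and TWIST2 itself lies below all of them.

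Among the paralogues of the 10 factors 2 of 11 had a row, and neither passed the test. GRHL1, which like GRHL2 supports epithelial gene expression, had 4.71 ± 0.834 CPM in control lines and 4.10 ± 0.428 CPM in overexpressing lines (SD, n = 3). FOXC1 had 16.6 ± 1.08 and 15.6 ± 1.12 CPM. Of 41 other transcription factors linked to EMT 30 were measured, of which 9 rose, 14 fell and 7 did not pass the test, where 28.3% of all genes rose and 29.3% fell. Called genes were 9, where 19.3% of all genes were called. The median log2 fold change was -0.16 against 0.001 for all genes. RUNX2, the master factor of bone formation, went from 100, 128 and 104 counts to 19, 21 and 22 counts, a log2 fold change of -2.51. ID2 and ID3, which block basic helix-loop-helix factors by pairing with their partners, moved in opposite directions, with log2 fold changes of -1.43 for ID2 and 1.02 for ID3. GATA3 (-1.34) and the homeobox gene MSX1 (0.79) were the other called genes named by the rule. GATA3 had 15, 23 and 24 counts in control libraries 1 to 3 and 5, 6 and 15 counts in overexpressing libraries, and its log2 fold change was -1.93 without overexpressing library 3 and -1.10 without overexpressing library 2. With glmTreat neither GATA3 (adjusted p 0.0831) nor MSX1 (0.240) was called (edgeR, Benjamini-Hochberg).

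Of 38 repressor partners, cofactors through which these repressors act (the NuRD, Polycomb, CtBP and related complexes), 35 were measured. Of these 10 rose and 13 fell, where 28.3% of all genes rose and 29.3% fell, and 2 were called, where 19.3% of all genes were called. Their median log2 fold change was -0.05. MTA3, a NuRD subunit, had a log2 fold change of -0.58 that lay at the fold threshold, and the count of called partners was 0 without control library 1, without control library 3 or without overexpressing library 1, and 1 without overexpressing library 3. Of 37 genes that control the stability of the factors as proteins 34 were measured, 9 rose, 12 fell and 3 were called, where 28.3%, 29.3% and 19.3% of all genes rose, fell and were called. The median log2 fold change was 0.03. CTDSPL, a phosphatase related to those that stabilise Snail, fell with a log2 fold change of -2.71 from 45, 35 and 32 counts to 2, 9 and 7 counts. ATM (-0.72), a kinase of the DNA damage response, and FBXO11 (-0.64), a ubiquitin ligase subunit that targets Snail proteins, were the other called genes. ATM fell under the fold threshold without overexpressing library 1, and FBXO11 did with library size alone, each at a log2 fold change that rounds to -0.58.

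Of 55 epithelial target genes 38 were measured: 8 rose, 16 fell and 14 did not pass the test, where 28.3% of all genes rose and 29.3% fell. Called genes were 13, or 34.2%, where 19.3% of all genes were called. The median log2 fold change of the measured genes was -0.14. This list too was written with earlier results of these data known, so its called share is a description and not a test. CDH1 had 56, 43 and 34 counts in control libraries 1 to 3 and 15, 14 and 14 counts in overexpressing libraries, with every overexpressing library below every control library. Its log2 fold change was -1.71 (SE 0.24), with an adjusted p of 4.74e-05 (edgeR quasi-likelihood test, Benjamini-Hochberg). ESRP2, a splicing regulator of epithelial isoforms, went the other way with a log2 fold change of 0.75 (SE 0.09) and was not called with glmTreat (adjusted p 0.0870, edgeR, Benjamini-Hochberg). EPCAM overlapped between groups at 5.54 ± 1.12 and 5.91 ± 0.174 CPM (SD, n = 3). ESRP1 had no row and was not analysed here. The keratin KRT7 (1.65) and C1orf116 (1.77) rose, whereas MAP7 (-3.64), a microtubule-binding protein, and the desmosomal cadherin DSC2 (-1.97) fell, all as log2 fold changes.

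Of 55 mesenchymal target genes 41 were measured: 12 rose and 21 fell, where 28.3% of all genes rose and 29.3% fell. Called genes were 20, or 48.8%, where 19.3% of all genes were called. The median log2 fold change was -0.31 against 0.001 for all genes. This list was written with earlier results of these data known, so its called share is a description and not a test. VIM, the intermediate filament of mesenchymal cells, rose slightly from 1127 ± 37.2 to 1390 ± 60.0 CPM (SD, n = 3), and CDH2 (N-cadherin) from 135 ± 3.21 to 176 ± 1.42 CPM (SD, n = 3). FN1 (fibronectin) fell from 1247 ± 65.2 to 525 ± 48.4 CPM (SD, n = 3), a log2 fold change of -1.25. COL5A1 had 300, 319 and 296 counts in control libraries and 0, 1 and 2 counts in overexpressing libraries, a normalized ratio of 0.00307 with an exact 95% counting interval of 0.000631 to 0.00899. Its fitted log2 fold change was -8.18, and -8.97 without overexpressing library 3. COL6A3 had a log2 fold change of -2.83, and the proteoglycan gene SPOCK1 went from 245, 235 and 226 counts to 2 counts in every overexpressing library. The matricellular genes CCN1 and CCN2 rose, with log2 fold changes of 2.01 and 1.42.

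**Figure D4:**
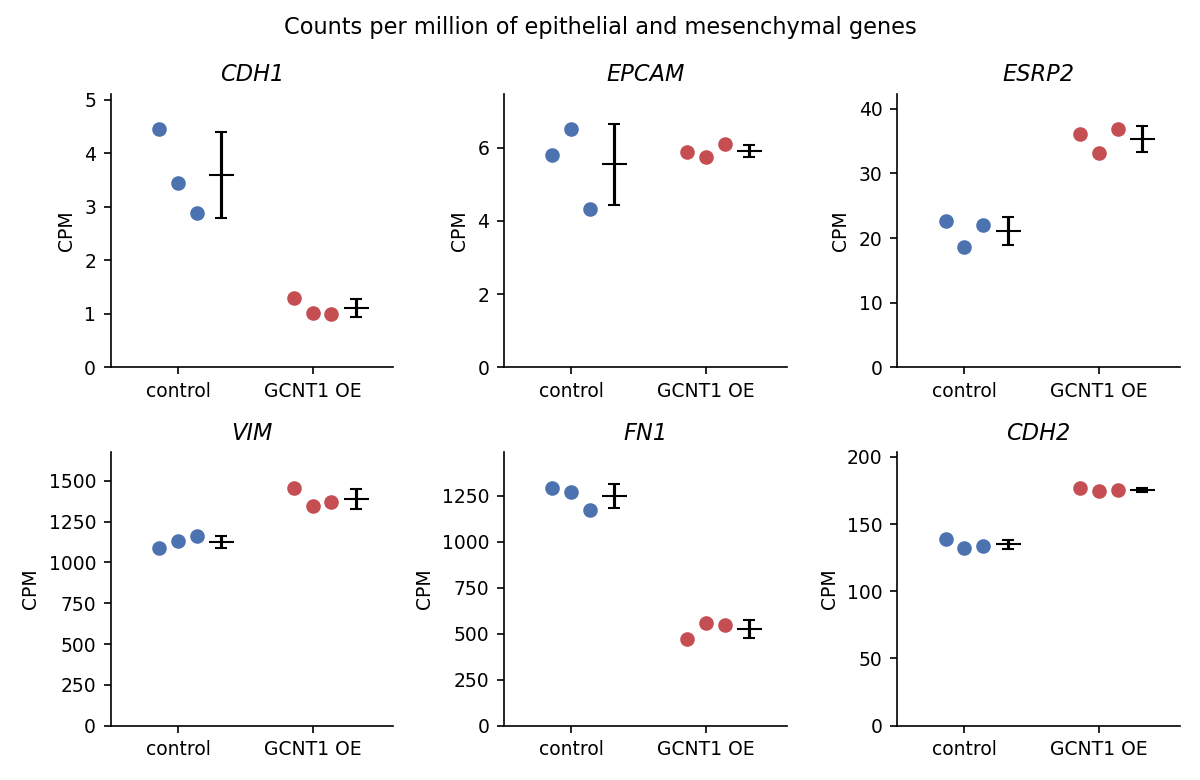
CPM of 3 epithelial genes (upper row) and 3 mesenchymal genes (lower row), with 1 point per library and the mean ± SD of 3 libraries per group in black. CDH1 and FN1 are lower in every overexpressing library, ESRP2, VIM and CDH2 are higher in every one, and EPCAM overlaps.

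TGF-beta signalling, which induces several of these factors, was measured for all 20 listed genes: 6 rose, 6 fell and 8 did not pass the test, where 28.3% of all genes rose and 29.3% fell. The median log2 fold change was -0.09. SKIL, a repressor of SMAD proteins, had a log2 fold change of 0.87 and the ligand TGFB3 0.62. LTBP1, which holds latent TGF-beta in the matrix, went from 4557, 4719 and 4180 counts to 1731, 2356 and 2377 counts (log2 fold change -1.16). SMAD2 (-0.60) and SMAD7 (-0.65) were also called lower. SMAD2 fell under the fold threshold without control library 2 (-0.56), without overexpressing library 2 (-0.54) and with library size alone (-0.54), and TGFB3 did without overexpressing library 2 (0.56). SMAD7 missed an adjusted p of 0.05 in 8 of 13 alternatives (edgeR or DESeq2, Benjamini-Hochberg), among them those without control library 1, control library 2, overexpressing library 1 or overexpressing library 3. The count of called genes in this list was 5 with all libraries, where 19.3% of all genes were called, and 3 without control library 2 or without overexpressing library 2.

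**Figure D5:**
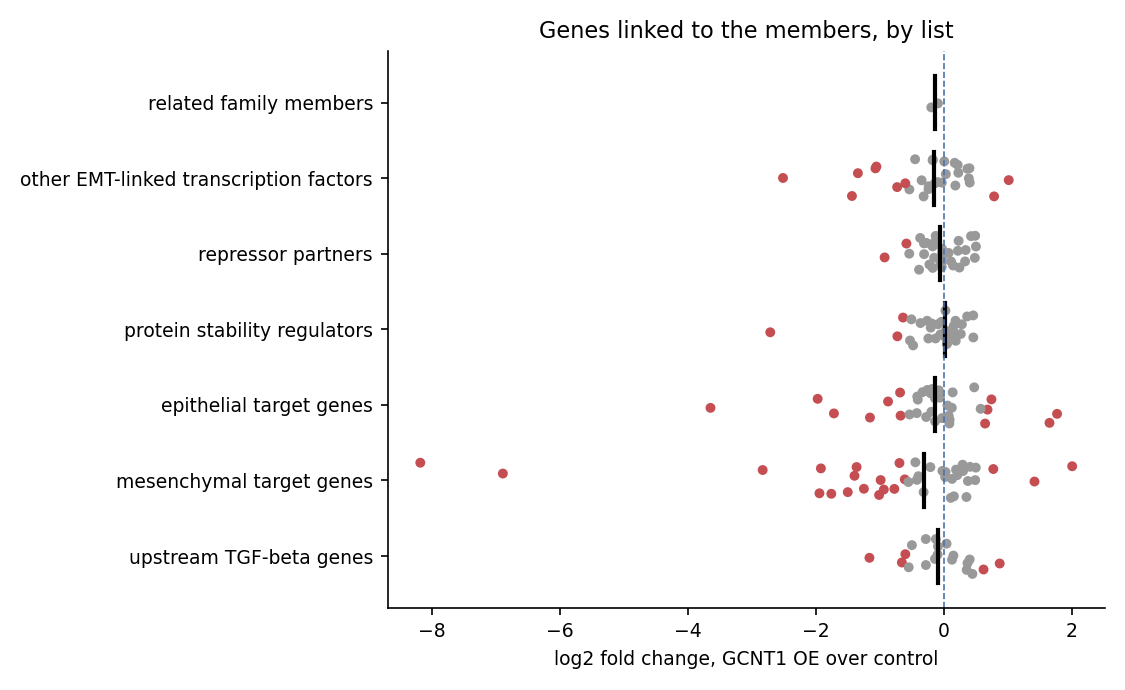
Log2 fold changes of measured genes in 7 lists linked to the factors, with called genes in red, other genes in grey, the list median as a black bar and the median of all genes as a dashed line. Genes that are not reported here are not drawn but are part of the medians. The 2 lowest points are COL5A1 and SPOCK1.

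The cell line label was checked against markers. All 4 epithelial keratins were measured. Their summed level was 835, 883 and 891 CPM in control libraries 1 to 3 and 798, 685 and 726 CPM in overexpressing libraries. KRT19 led in every library except overexpressing library 2, where it had 215 CPM and KRT18 had 216 CPM. KRT7, part of this sum, rose with a log2 fold change of 1.65. Of the prostate luminal markers 3 of 8 were measured, led by HOXB13, with a summed level of 814, 795 and 863 CPM in control libraries and 701, 680 and 670 CPM in overexpressing libraries, and KLK2 and KLK3 were among those with no row. Of the basal markers 1 of 4 was measured, KRT15, at 15.3, 17.3 and 18.1 CPM in control libraries and 8.55, 8.23 and 8.58 CPM in overexpressing libraries. Of the neuroendocrine markers 1 of 5 was measured, SYP, at 2.70, 2.89 and 3.47 CPM and 1.12, 1.89 and 1.13 CPM. Of the fibroblast markers 2 of 7 were measured, led by COL3A1, with a summed level of 178, 126 and 157 CPM in control libraries and 43.0, 46.7 and 44.4 CPM in overexpressing libraries, while DCN, LUM, PDGFRA and PDGFRB had no row. PECAM1, the measured gene of 3 endothelial markers, went from 1.43, 1.93 and 1.95 CPM to 5.10, 3.93 and 4.25 CPM, and VWF and CDH5 had no row. CD68 was the measured gene of 4 immune markers, at 83.4, 94.4 and 91.7 CPM and 89.5, 80.0 and 83.6 CPM. Their part in the differences of the factors was not tested.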

How the data were processed

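Stranded mRNA libraries were made from 6 lines. The authors used Cutadapt for trimming, HISAT2 for alignment to hg38 and featureCounts for counting, and deposited raw read counts per Entrez gene. The gene annotation, strand setting and low-count filter are not given in the sources used here. Of 12703 identifiers 12661 matched a RefSeq symbol. Counts were tested with edgeR 4.0.16 in R 4.3.3 (filterByExpr, which kept all genes, TMM factors, quasi-likelihood test, Benjamini-Hochberg adjustment over 12703 genes). The tests were checked on simulated counts. RPKM used the union exon length of GENCODE 44. Summaries used Python 3.11.15. Alternatives were limma-voom (limma 3.58.1), DESeq2 1.42.0, glmTreat, a replicate block, scaling by RLE factors or by library size alone, filtering at a mean of at least 2 CPM or not at all, and leaving out each library. Libraries of 1 group differed by more than sampling noise (chi-square per degree of freedom 1.65 to 5.61). P-values measure the spread between these libraries. The sample labels call them biological replicates, and whether the lines of a group were transduced separately is not stated. An effect of GCNT1 cannot be told apart from differences in how the control and overexpressing lines were derived.

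Members and gene lists were chosen with earlier results of these data known, so the called shares of all lists are descriptions and not tests. Named genes were the 10 factors, GCNT1, CDH1, EPCAM, ESRP1, ESRP2, VIM, FN1, CDH2, all measured paralogues, in each list the 3 largest called rises and 3 largest called falls without overlap, and the 3 genes closest in pattern to each called factor. ZEB1-AS1, the genes flanking TWIST2 and ZEB2 and the called neighbours of ZEB2 were named for their position, after their values were seen. Part of what this rule gives is left out and not reported here.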

Additional observations from a re-analysis of the deposited data

How the results depend on the processing

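TWIST2 and ZEB2 passed both thresholds in all 14 alternatives, with log2 fold changes of -6.07 to -5.34 and 1.27 to 1.78. The adjusted p of ZEB1 was above 0.05 in 10 of 14: the log2 fold change was -0.20 (adjusted p 0.0568) with DESeq2, -0.20 (0.0576) with limma-voom, -0.20 (0.0515) with a mean of at least 2 CPM, -0.20 with glmTreat and -0.15 (0.154) with library size alone, and it ranged from -0.29 to -0.13 when 1 library was left out (all Benjamini-Hochberg adjusted). The cause was not tested. SNAI1, SNAI2 and TWIST1 passed in none of the 14 and kept their direction. EPCAM, which did not pass the test, changed sign to -0.06 without control library 3 and ranged up to 0.22 without another library. GCNT1 missed an adjusted p of 0.05 in 5 of 13 alternatives and had no value with a mean of at least 2 CPM.

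With the replicate block, 2423 genes were called in place of 2457, ZEB1 had a log2 fold change of -0.20 and an adjusted p of 0.0521 (edgeR, Benjamini-Hochberg), and both called factors stayed called. The deviations of libraries with the same number correlated at -0.273, -0.002 and -0.109. Those of libraries with different numbers correlated at -0.2 to 0.263. With 3 libraries per group such values neither show nor exclude a pairing by number.

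glmTreat, which tests against a fold and so asks for more, gave 1392 genes called and 1392 past adjusted p in place of 7314. It gave 5 other transcription factors called in place of 9, 0 repressor partners in place of 2, 1 stability regulator in place of 3, 8 epithelial genes in place of 13 and 2 TGF-beta genes in place of 5. Of the called genes followed over the alternatives it did not call GCNT1, ESRP2, MSX1, GATA3, MTA3, ATM, FBXO11, TGFB3, SMAD2 and SMAD7. Called repressor partners were 1 with DESeq2, limma-voom or a mean of at least 2 CPM, 0 with library size alone, and 0 to 2 with 1 library left out. Called TGF-beta genes were 3 with library size alone and 3 to 5 with 1 library left out.

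With library size alone 4290 genes rose and 3144 fell in place of 3593 and 3721, and 1283 were called higher and 1230 lower in place of 1052 and 1405.

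ZEB2 had at most 67 and SNAI1 at most 43 counts in a library, and TWIST2 had 1 or 2 in overexpressing lines.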
